A study of Homo sapiens with 8 samples.

Results

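Matrix metalloproteinases and their inhibitors were examined in LX-2 cells, a transformed line of human hepatic stellate cells, through 10 genes chosen by symbol. These are the enzymes MMP1, MMP2, MMP3, MMP9, MMP10 and MMP14 and the inhibitors TIMP1, TIMP2, TIMP3 and RECK. The authors' deposited table lists 9 of the 10 among its 14870 rows, and MMP10 is not listed. All cells grew in DMEM medium with 2% serum and received recombinant human TGF-β1 for 72 h, a cytokine known to push stellate cells towards matrix production. The 4 control samples had the solvent DMSO besides, and the other 4 had 5 µM ML290, a small molecule that activates the relaxin receptor RXFP1. Every group had TGF-β1, so its own effect is not measured, and a line kept in culture models stellate cells alone, without the other cells of a liver.

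Matrix metalloproteinases are zinc-dependent endopeptidases that are made as inactive proenzymes and cut collagens and other matrix proteins once their propeptide is removed. TIMPs block the active enzymes by binding the catalytic zinc, and RECK is a membrane-anchored inhibitor of several of them. In a scarring liver, stellate cells are a main source of both, and the ratio of enzyme to inhibitor is used as a gauge of whether fibrillar collagen is removed or retained.

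Each gene has 1 group mean per treatment, the authors' least-squares mean of normalised read counts over 4 samples, so no SD, no SE and no value per sample accompanies the results. A gene is called where the adjusted p from the authors' deposited table, by a test that is not given, is under 0.05. In bulk RNA, fewer cells of a type and less RNA per cell cannot be told apart. Low values lay on steps of 1 read that imply some 19200000 reads for an ML290 library and 21000000 for a DMSO library, if values are scaled to 1000000 reads. Of 15 stellate cell genes 13 were listed, without the quiescence and muscle markers LRAT and DES. Of the 13, 2 were higher and 9 lower per the authors' deposited table, where 19.5% of all rows were higher and 15.6% lower. COL1A1, COL1A2 and COL3A1 in this list are counted again among the collagens below. The 2 higher were VIM and RELN, and HGF and NGFR were not called. Summed group means were 5624 with ML290 and 9262 with DMSO per the authors' deposited table. Of these sums COL1A1 gave 1810 and 4231, and VIM 2685 and 2284, per the authors' deposited table. The median log2 ratio was -1.05. The part of this shift in the changes described here was not tested. Of 10 leukocyte and macrophage markers 4 were listed, 1 higher and 1 lower, with a median log2 ratio of -0.20 per the authors' deposited table. Their summed group means were 76.1 with ML290 and 41.4 with DMSO per the authors' deposited table. Most of it was CD68, the higher one, a lysosomal protein that is not limited to macrophages. CD14 was lower, at 3.59 with ML290 and 5.38 with DMSO (adjusted p = 0.0169), per the authors' deposited table. LYZ and CSF1R were not called, and the pan-leukocyte gene PTPRC was not listed. Of 10 hepatocyte, epithelial and endothelial markers 2 were listed, with summed group means of 1.01 and 1.88 per the authors' deposited table, and the hepatocyte gene ALB was not listed.

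ML290 went with more transcript of the collagenase MMP1, the stromelysin MMP3 and the membrane-bound MMP14, and with less of the gelatinase MMP9 and of the inhibitors TIMP2 and TIMP3. MMP2, TIMP1 and RECK did not pass the threshold. Of the 9 listed genes 3 were higher and 3 lower per the authors' deposited table, where 35.1% of all rows were called, 19.5% higher and 15.6% lower. Among the 5 listed enzymes 3 were higher and 1 lower, and among the 4 inhibitors 0 were higher and 2 lower, per the authors' deposited table. The call of MMP3 may follow from a filter, as described below. Without MMP3 the enzymes called higher were MMP1 and MMP14. A Bonferroni-adjusted p under 0.05, a rule that calls 5.88% of rows, kept MMP1 and TIMP3. An adjusted p under 0.01, which calls 23% of rows, kept all 6 but MMP3. The changes ranged from a log2 ratio of 3.64 for MMP3 to -1.26 for MMP9, against a median of 0.02 over all rows of the authors' deposited table.

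Upstream sequence is shown for 3 members that went different ways, MMP14 (higher), TIMP3 (lower) and TIMP1 (not called). Each is the 250 bases before the RefSeq transcription start on GRCh38.p14, on the plus strand, with matches to the searched motifs in capitals. The windows are chr14:22836335-22836584 for MMP14, chr22:32801455-32801704 for TIMP3 and chrX:47582186-47582435 for TIMP1. The GENCODE 29 annotation starts these genes inside the windows, at 22836557 for MMP14, 32801701 for TIMP3 and 47582313 for TIMP1. By that annotation the end of each window is part of the gene and not upstream of it.
MMP14: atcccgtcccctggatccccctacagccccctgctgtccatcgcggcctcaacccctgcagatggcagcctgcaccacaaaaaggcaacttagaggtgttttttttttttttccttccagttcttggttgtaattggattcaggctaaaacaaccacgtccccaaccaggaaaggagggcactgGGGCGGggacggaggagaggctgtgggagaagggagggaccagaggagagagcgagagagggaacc
TIMP3: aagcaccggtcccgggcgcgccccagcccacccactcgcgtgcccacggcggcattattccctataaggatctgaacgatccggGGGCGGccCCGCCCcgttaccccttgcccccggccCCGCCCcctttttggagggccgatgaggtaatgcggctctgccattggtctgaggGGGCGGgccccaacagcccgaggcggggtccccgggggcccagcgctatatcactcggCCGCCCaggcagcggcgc
TIMP1: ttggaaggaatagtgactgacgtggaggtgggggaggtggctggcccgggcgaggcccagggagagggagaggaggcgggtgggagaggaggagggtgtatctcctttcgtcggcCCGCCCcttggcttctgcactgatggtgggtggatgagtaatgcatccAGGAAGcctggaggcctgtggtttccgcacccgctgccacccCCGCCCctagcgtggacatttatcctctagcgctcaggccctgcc
The motifs were AP-1 (TGANTCA), the cAMP response element CRE (TGACGTCA), the TGF-β inhibitory element, PEA3 (AGGAAG), the TATA box (TATAAA) and the GC box bound by SP1 (GGGCGG), each searched on both strands, and no match overlapped another motif. The GC box was found 1 time in MMP14, 5 times in TIMP3 and 2 times in TIMP1, and 42.6% of 35114 RefSeq windows of this length hold at least 1. TIMP1 also had 1 PEA3 match, which 28.7% of windows hold. RefSeq windows matched 5 of the 10 genes by symbol. The other 2 were RECK and MMP10. RECK had 3 GC boxes, in a window that lies wholly inside its GENCODE 29 gene. MMP10 had an AP-1 match starting at position -67 and a TATA box starting at -31 from the start site. AP-1 matches were in 6.57% and TATA boxes in 10.7% of all windows. MMP1, MMP2, MMP3, MMP9 and TIMP2 had no entry. A match is a run of letters and not a bound site, and the lack of one says only that these letters are not in the window. GC content was 56.8% in MMP14, 64.8% in TIMP1 and 72.4% in TIMP3, against a median of 58% over all windows.

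MMP1 is the interstitial collagenase, which makes the first cut in the triple helix of type I and type III collagen. Its mean was 220.2 with ML290 and 30.03 with DMSO per the authors' deposited table, a 7.33-fold increase (adjusted p = 8.27e-08). This log2 ratio of 2.87 stood in place 19 from the top of all rows, and in place 4 of the 8860 rows with a mean level of at least 10 per the authors' deposited table. MMP1 (ENSG00000196611.4) is a protein-coding gene on chromosome 11 from 102789920 to 102798160 of GRCh38 (GENCODE 29), on the minus strand. The pseudogene WTAPP1, which is not listed, shares 150 exonic bases with MMP1 on the opposite strand. The use of strand in counting is not given, so reads of that stretch cannot be assigned to either.

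MMP3, stromelysin 1, cuts proteoglycans and non-fibrillar matrix and activates the proenzyme of MMP1. The authors' deposited table puts it at 1.17 with ML290 and 0.0945 with DMSO, 12.4-fold higher (adjusted p = 0.0228), or about 90 against 8 reads when the 4 libraries are pooled within a group. Counting error alone gives this ratio an exact Clopper-Pearson 95% interval from 5.998 to 29.4, which covers no spread between cultures and takes reads as independent molecules. Had both groups been at the DMSO level, its total over 8 samples would have been 0.756, under the lowest total per the authors' deposited table, 0.895. If the authors filtered on this total, MMP3 passed only through the ML290 group and had to differ, so its call gives the counts no support. The interval takes no account of such a filter, so its distance from 1 is no support either. Leaving MMP3 out, 2 members were higher and 3 lower per the authors' deposited table. MMP3 lies 37.6 kb from MMP1, at positions 102835801 to 102843803 of chromosome 11 and on the same strand.

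Both belong to a run of 9 metalloproteinase genes that spans 435.2 kb of chromosome 11. The other 7, MMP7, MMP20, MMP27, MMP8, MMP10, MMP12 and MMP13, are not listed. MMP10, the second stromelysin, lies between MMP8 and MMP1, from 102770503 to 102780628, and no value can be given for it. The other classical collagenases, MMP8 and MMP13, therefore have no value beside that of MMP1.

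MMP14 is the membrane-type enzyme that cuts fibrillar collagen at the cell surface and, with TIMP2 as a bridge, activates the proenzyme of MMP2. Its mean was 276.8 with ML290 and 225.6 with DMSO per the authors' deposited table, a 1.23-fold increase (adjusted p = 0.00108). MMP2, gelatinase A, which digests denatured collagen and type IV collagen, had 451.9 with ML290 and 502.7 with DMSO per the authors' deposited table (adjusted p = 0.221). Neither moved by as much as 1.5-fold. MMP2 lies on chromosome 16 from 55389700 to 55506691 and MMP14 on chromosome 14 from 22836557 to 22849027. An annotated gene without a symbol of its own, not listed, shares 174 exonic bases with MMP2 on the same strand. Reads of that stretch cannot be assigned to either.

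MMP9, gelatinase B, shares the substrates of MMP2 and is best known from neutrophils and macrophages. It had 2.92 with ML290 and 6.99 with DMSO per the authors' deposited table, a 2.39-fold decrease (adjusted p = 6.71e-05), or about 224 and 588 reads over the 4 libraries of each group. It was the 1 enzyme called lower among the 5 listed. The antisense gene SLC12A5-AS1, not listed, shares 430 exonic bases with MMP9, so a part of these reads cannot be assigned without strand. MMP9 lies on chromosome 20 from 46008908 to 46016561.

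TIMP3 had the largest decrease of the 4 inhibitors. It is the TIMP that binds to the extracellular matrix, and besides metalloproteinases it blocks ADAM17 and the aggrecan-cutting ADAMTS enzymes. Its mean fell from 241.8 with DMSO to 122.6 with ML290 per the authors' deposited table, a 1.97-fold decrease (adjusted p = 8.90e-08). Counted from the lowest ratio, it stood in place 72 of the 8860 rows with a mean level of at least 10 per the authors' deposited table. TIMP3 lies on chromosome 22 from 32801701 to 32863043, within the gene SYN3, which runs on the opposite strand, shares no exonic base with it and is not listed.

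TIMP2, the inhibitor that links MMP14 to the MMP2 proenzyme, had 517.3 with ML290 and 640.03 with DMSO per the authors' deposited table, a 1.24-fold decrease (adjusted p = 0.000568). An antisense gene without a symbol of its own shares 367 exonic bases with TIMP2 and is not listed. TIMP1, an inhibitor that binds the proenzyme of MMP9 and is raised in fibrotic liver, had 266.5 with ML290 and 285.8 with DMSO per the authors' deposited table (adjusted p = 0.214). RECK had 4.06 with ML290 and 4.22 with DMSO per the authors' deposited table (adjusted p = 0.805), about 311 and 355 reads over the libraries of each group. TIMP1 lies on chromosome X from 47582313 to 47586789, TIMP2 on chromosome 17 from 78852977 to 78925387 and RECK on chromosome 9 from 36036433 to 36124451.

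Divided by exonic length, the group means can be set beside each other across genes. With DMSO the order from the top was TIMP1 at 195.9, TIMP2 at 157.1, MMP2 at 106.1, MMP14 at 60.5, TIMP3 at 52.5 and MMP1 at 15.2 normalised reads per kb, computed from the authors' deposited table. MMP9 at 2.99, RECK at 0.863 and MMP3 at 0.0469 reads per kb followed, computed from the authors' deposited table. With ML290, MMP1 stood in place 3, at 111.8 reads per kb, above MMP2 at 95.4, MMP14 at 74.2 and TIMP3 at 26.6, computed from the authors' deposited table. TIMP1 at 182.7 and TIMP2 at 126.96 reads per kb kept the first places in that group of the authors' deposited table. Both orders depend on the length used, here merged exons, 4738 bases for MMP2 and 1970 for MMP1. Which transcripts these cells used is not known, and a shorter length for MMP2 would raise its value. Undivided, the means with ML290 were 451.9 for MMP2 and 220.2 for MMP1 per the authors' deposited table. Without values per sample it cannot be said which neighbours in either order differ beyond their spread.

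**Figure D1:**
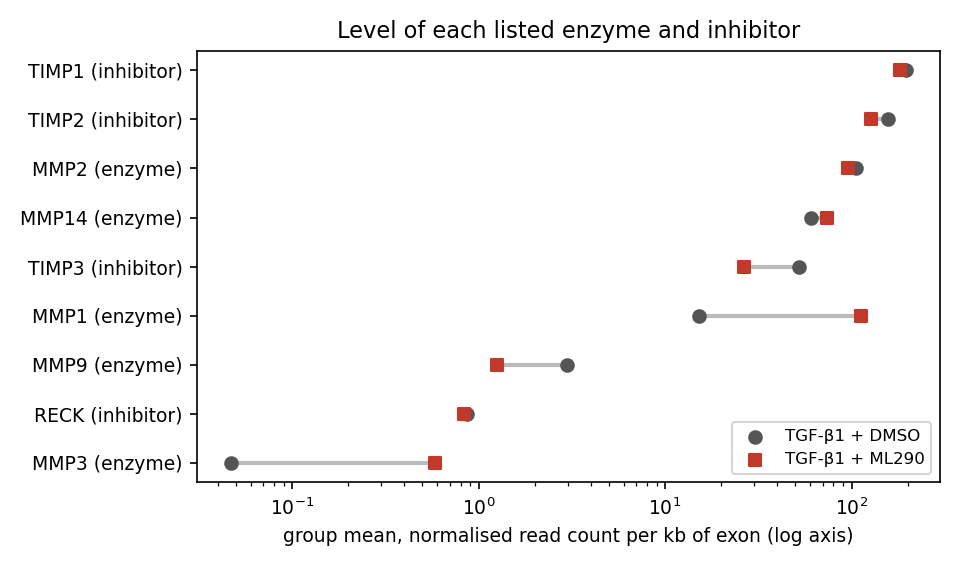
Group mean of each listed gene, in normalised reads per kb of exon on a log axis, with DMSO (circles) and ML290 (squares); each point is the authors' mean of 4 samples and has no error bar, since no spread was used here. On this scale, which depends on the merged exon lengths used, MMP1 crosses from below TIMP3 to above MMP2, while TIMP1, MMP2 and RECK have nearly coinciding points.

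The change of the balance was taken as the mean log2 ratio of the enzymes less that of the inhibitors, a value without a test. The mean was 1.08 over 5 enzymes and -0.36 over 4 inhibitors, a difference of 1.44 computed from the authors' deposited table. The size rested on MMP1 and MMP3. If the authors filtered on the total, MMP3 had to differ, so its part of the difference is no support. The difference was 0.80 over members with a mean level of at least 1, which drops MMP3. It was 0.99 without MMP1, which keeps MMP3, and -0.011 without MMP1 and MMP3. Per length, the summed enzymes stood at 0.455 of the summed inhibitors with DMSO and at 0.84 with ML290, computed from the authors' deposited table. MMP1 made up 8.25% of the per-length enzyme sum with DMSO and 39.5% with ML290, while the share of MMP2 went from 57.4% to 33.7%, computed from the authors' deposited table. Among the inhibitors, TIMP3 made up 12.9% of the per-length sum with DMSO and 7.90% with ML290, and TIMP1 48.2% and 54.2%, computed from the authors' deposited table. Per-length sums and shares rest on merged exon lengths, which may differ from those of the transcripts these cells used. Transcript sums say nothing of how much enzyme was active.

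**Figure D2:**
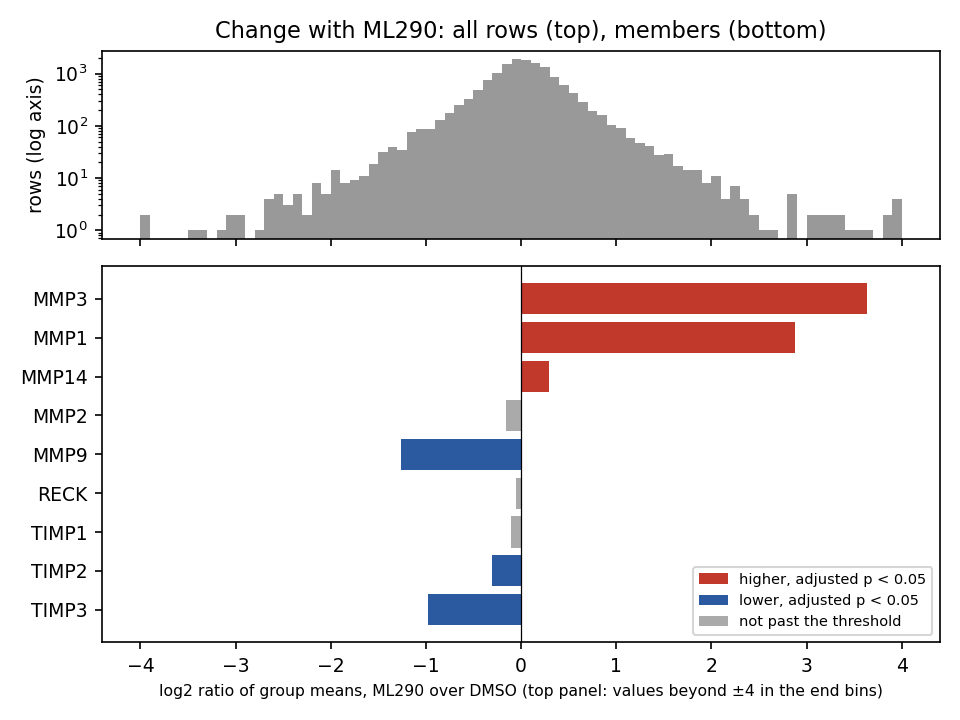
Log2 ratio of group means, ML290 over DMSO, for all 14870 rows (top, count of rows on a log axis) and for each listed member (bottom, bars from 0, coloured by the call). MMP3 and MMP1 lie in the thin right tail of all rows, MMP9 and TIMP3 on the left side, and MMP2, TIMP1 and RECK near 0.

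Pair by pair, gene length cancels. Of the 20 enzyme-to-inhibitor pairs, 14 ratios were higher with ML290 and 6 lower, as values without a test computed from the authors' deposited table. Without MMP3, 10 of 16 were higher and 6 lower. All 4 pairs with MMP1, with MMP3 and with MMP14 were higher, 2 of the 4 with MMP2 were, and 0 with MMP9. The pairs are built from the ratios of 9 genes and are not independent of each other. MMP2 to TIMP1 and MMP2 to RECK, pairs of genes not called, were lower by only 1.04-fold and 1.07-fold. The ratio of MMP1 to TIMP1 was 7.86-fold higher and that of MMP1 to TIMP3 14.5-fold higher, computed from the authors' deposited table. In the activation complex of MMP14, TIMP2 and MMP2, the ratio of MMP14 to TIMP2 was 1.52-fold higher and that of MMP2 to TIMP2 1.11-fold higher, computed from the authors' deposited table. MMP9 to TIMP1, a pair that forms a complex of proenzyme and inhibitor, was 2.23-fold lower, computed from the authors' deposited table.

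**Figure D3:**
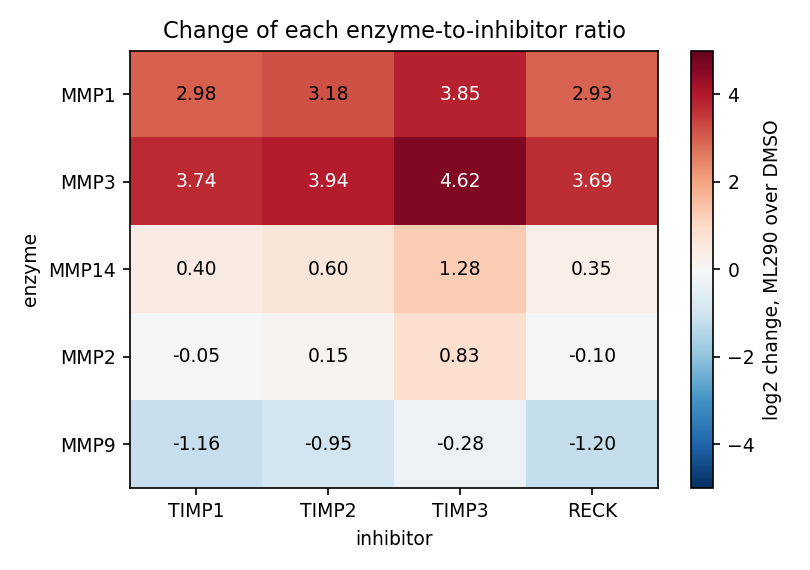
Log2 change, ML290 over DMSO, of the ratio of each listed enzyme (rows) to each inhibitor (columns), from the authors' group means and without a test. The upper 3 rows are above 0 throughout, from 0.35 to 4.62, the MMP2 row runs from -0.10 to 0.83 and the MMP9 row is below 0 throughout.

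Of 17 other metalloproteinases 8 were listed, and 1 of these was called, the membrane-type MMP15, with 12.1 against 9.56 (adjusted p = 0.0313) per the authors' deposited table. The 8 had a median log2 ratio of -0.07, and their group means with ML290 ran from 0.533 to 16.5 per the authors' deposited table. MMP11, a stromelysin with furin-dependent activation, had 0.533 with ML290 and 1.08 with DMSO per the authors' deposited table (adjusted p = 0.0536). Of 9 other inhibitors and binding partners 6 were listed, with 1 higher and 2 lower and a median log2 ratio of -0.05 per the authors' deposited table. These counts of calls in both lists stand against 35.1% of all rows called, 19.5% higher and 15.6% lower. TFPI2, a Kunitz-type inhibitor of plasmin and other serine proteases, was 4.24-fold higher, from 58.1 to 246.4 (adjusted p = 2.72e-09) per the authors' deposited table. The thrombospondins THBS1 and THBS2, matrix proteins that bind MMP2, were 2.17-fold and 2.16-fold lower (adjusted p = 4.68e-08 and 6.85e-08) per the authors' deposited table. TIMP4 and the plasma inhibitor A2M were not listed.

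Of 17 genes that activate metalloproteinases or hold them at the cell surface 12 were listed. Of these 5 were higher and 2 lower per the authors' deposited table, against 19.5% and 15.6% of all rows, and the median log2 ratio was 0.19. Urokinase, PLAU, which generates plasmin, was 1.23-fold higher and its receptor PLAUR 1.63-fold higher (adjusted p = 0.00123 and 2.09e-06) per the authors' deposited table. CD44, a hyaluronan receptor that anchors MMP9 and MMP14, was 1.23-fold higher (adjusted p = 0.00539) per the authors' deposited table. The proprotein convertase PCSK7 was 1.25-fold lower and the tetraspanin CD151 1.18-fold lower (adjusted p = 0.00107 and 0.00495) per the authors' deposited table. FURIN, the convertase that removes the propeptide of MMP14, had 143.5 with ML290 and 129.0 with DMSO per the authors' deposited table (adjusted p = 0.141). Of 3 receptors that take up metalloproteinases, TIMP complexes or collagen fragments 2 were listed and 1 was lower, the collagen receptor MRC2, by 1.22-fold (adjusted p = 0.0190) per the authors' deposited table. LRP1, which clears enzyme and inhibitor complexes, had 1054.0 with ML290 and 951.5 with DMSO per the authors' deposited table (adjusted p = 0.130).

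Among the related ADAM and ADAMTS proteases, some of which TIMP3 blocks, calls were about as common as over all rows. Of 28 genes 20 were listed, with 5 higher and 4 lower per the authors' deposited table, where 19.5% of all rows were higher and 15.6% lower, and the list's median log2 ratio was -0.11. ADAM17, the sheddase that releases TNF, was 1.46-fold higher (adjusted p = 8.46e-05) and the versican-cutting ADAMTS1 1.66-fold higher (adjusted p = 0.000209) per the authors' deposited table. ADAM8 was 1.70-fold higher at a mean under 4 (adjusted p = 0.00555) per the authors' deposited table. ADAMTS15 fell from 8.07 to 2.08, 3.88-fold lower (adjusted p = 8.69e-07), ADAM19 was 1.58-fold lower (adjusted p = 6.66e-06) and ADAMTS7 1.38-fold lower (adjusted p = 0.00207) per the authors' deposited table. The aggrecanase ADAMTS4 had 4.56 (ML290) and 3.08 (DMSO, adjusted p = 0.00789), and the sheddase ADAM10 had 89.2 and 98.8 (adjusted p = 0.151), per the authors' deposited table.

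Transcription factors of the AP-1 and ETS families and their partners were mostly higher, and their part in the change of MMP1 was not tested. Of 22 AP-1, ETS and partner factors 21 were listed, 15 higher and 1 lower, with a median log2 ratio of 0.31 per the authors' deposited table, while 19.5% of all rows were higher. The smallest of these 15 increases was 1.15-fold. CEBPB was 2.75-fold, ATF3 3.21-fold and FOSB 3.30-fold higher (adjusted p = 9.23e-07, 4.21e-06 and 5.00e-06) per the authors' deposited table. The lower one was RUNX2, 1.41-fold (adjusted p = 0.000368), and the founding AP-1 member FOS had 2.09 (ML290) and 2.15 (DMSO, adjusted p = 0.775), per the authors' deposited table. Of 12 cytokines and growth factors known to induce collagenases 8 were listed, 6 higher and 1 lower, with a median log2 ratio of 1.11 per the authors' deposited table. Over all rows 19.5% were higher and 15.6% lower. LIF, an IL-6 family cytokine, was 2.96-fold higher, from 15.9 to 47.1 (adjusted p = 1.52e-07), and PDGFB was 1.56-fold lower (adjusted p = 0.00213) per the authors' deposited table. TNF, OSM, IL17A and EGF were not listed.

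The collagens that these enzymes cut moved the other way from MMP1. Of 9 fibrillar, basement membrane and anchoring chains 8 were listed, with 0 higher and 7 lower and a median log2 ratio of -0.92 per the authors' deposited table, where 15.6% of all rows were lower. COL5A2, a fibril-regulating chain, was 1.87-fold lower (adjusted p = 6.07e-08), and the anchoring fibril chain COL7A1 had 77.3 (ML290) and 71.5 (DMSO, adjusted p = 0.382) per the authors' deposited table. Fewer collagen transcripts and more MMP1 transcript are separate measurements of RNA, and collagen protein was not measured.

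**Figure D4:**
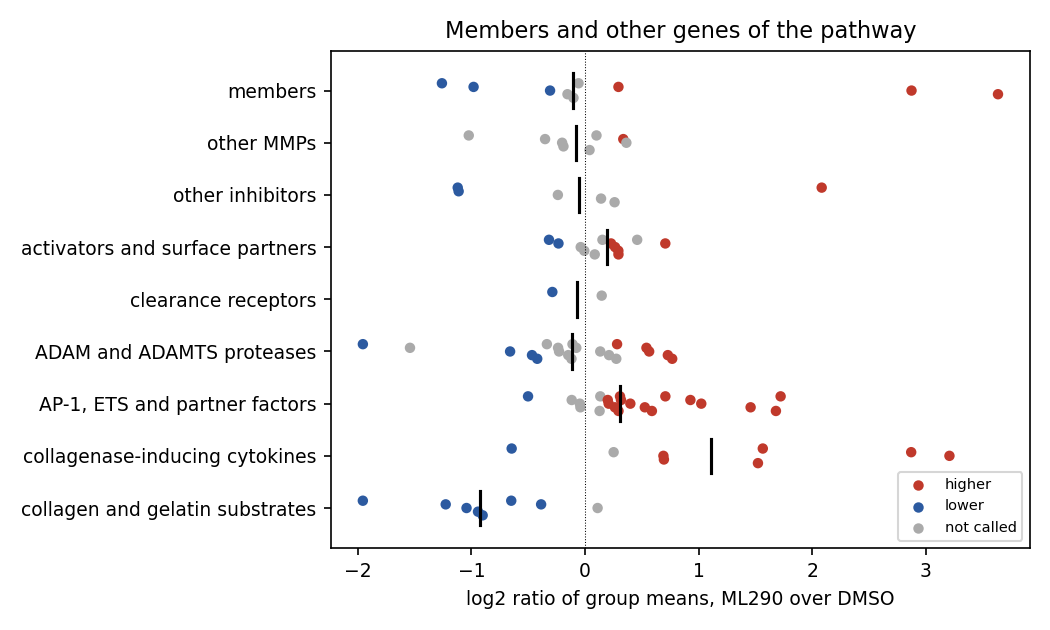
Log2 ratio of group means, ML290 over DMSO, of every listed gene in each list (points, coloured by the call of the authors' adjusted p under 0.05), with the list median as a bar. Points of the AP-1 and cytokine lists lie mostly to the right of 0 and those of the collagens to the left, and the other metalloproteinases gather around 0.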

How the data were processed

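Trizol lysates of 8 LX-2 samples, 4 per group, gave column-purified RNA, per the labels' protocols. The submitters' processing notes name STAR, Partek and GRCh38. Which annotation, counting, use of strand, filter, normalization and test the authors chose is, in the sources used here, not given. Group means and row totals that the authors deposited are a signal, least-squares means and totals of normalised read counts per the file headers. The deposited ratio was made by the authors as the quotient of the means, ML290 over DMSO. The deposited signed fold score was made by the authors from that ratio, with its negative inverse below 1. A p-value per gene and its step-up (FDR) adjustment were computed by the authors with a test left unnamed. No value per sample was used, so the design's count test was not run.

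Computed here were log2 ratios, levels (total divided by 8), counts of calls at an adjusted p under 0.05, levels per kb of merged exons (GENCODE 29 basic annotation, 94.1% of symbols matched), the enzyme-to-inhibitor balance, and motif matches in RefSeq windows. Read steps were fitted to summed values under 1.2; 84.1% of 778 ML290 values and 95.1% of 761 DMSO values lay within 0.15 of a whole read. Step fitting, calling and motif search were tested on simulated data. Members and gene lists were chosen with earlier results of these data known. Named were all members and, per list, up to 3 called genes with the smallest adjusted p in each direction; some such genes are not reported here, and MMP11, FURIN, LRP1, ADAMTS4, ADAM10, FOS, COL7A1, and genes named as markers or as not listed, were named for their role after their values were seen. Alternatives were stricter or other adjustments, level and fold filters, centring, a pseudocount and other forms of the balance. Scripts ran in Python 3.11.15 with scipy 1.17.1, pandas 2.3.3, matplotlib 3.10.9 and numpy 2.4.6.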

Additional observations from a re-analysis of the deposited data

How the results depend on the processing

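No paired analysis was possible because the columns hold group means, and for the same reason no replicate could be left out and no spread can be given. MMP1 and TIMP3 kept their calls under every adjustment tried. Bonferroni adjustment left 1 member higher and 1 lower, since MMP3 (log2 ratio 3.64), MMP14 (0.29), MMP9 (-1.26) and TIMP2 (-0.31) no longer passed. MMP3 also failed the stricter threshold of 0.01 and Benjamini-Yekutieli adjustment. With a pseudocount of 1 its log2 ratio was 0.99. Centring moved log2 ratios by 0.02 or 0.03 and turned no sign. The balance of 1.44 became 0.50 with medians, 0.99 without MMP1, 0.80 at a level of at least 1, 1.54 without RECK, 0.68 from summed means and 0.89 from summed means per length. Chosen after seeing the data, it was 0.36 from sums without MMP1 and reversed to -0.011 without MMP1 and MMP3. At an adjusted p of 0.01, other metalloproteinases had 0 calls in place of 1 and clearance receptors 0 in place of 1, and the counts of the other 6 lists stayed within 1.5 times. Depth limits MMP3 most, with about 8 reads over 4 DMSO libraries.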

Other observations

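Around the metalloproteinase genes of chromosome 11, 6 other genes within 500 kb were listed, with 2 higher and 0 lower per the authors' deposited table, near the 35.1% called over all rows. They were named after their values were seen. BIRC3, an inhibitor of apoptosis and a known target of NF-κB, was 3.65-fold higher, from 6.77 to 24.7 (adjusted p = 1.66e-07), and its neighbour BIRC2 1.23-fold higher (adjusted p = 0.0375) per the authors' deposited table. YAP1 had means of 163.6 (ML290) and 181.6 (DMSO, adjusted p = 0.1497), TMEM123 160.8 and 179.3 (adjusted p = 0.190), DCUN1D5 22.8 and 19.4 (adjusted p = 0.0718) and DYNC2H1 34.04 and 30.1 (adjusted p = 0.181), per the authors' deposited table.

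Of the rows at a mean level of 10 or more, the 3 whose log2 ratio was nearest to that of MMP1 were IL1B, SERPINB2 and IL6, at distances of 0.0029, 0.18 and 0.33 on the log2 scale per the authors' deposited table. This likeness rests on 2 group means per gene, and nothing on shared control follows from it.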
